A study of Arabidopsis thaliana with 10 samples.

Results

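The comparison is between Arabidopsis thaliana seedlings that overexpress the transcription factor BZR1 fused to yellow fluorescent protein (BZR1-YFP) and untreated seedlings of their Col-0 background. Its members are the protein-coding genes whose higher group value reached 1 FPKM (fragments scaled by transcript length and by mapped fragments), which were 19524 of 27560 protein-coding genes and of 38303 rows in the whole table. Messenger RNA of whole 12-day-old seedlings, raised at 23 °C under 16 h light and 8 h darkness on half-strength medium, was sequenced in 2 libraries a group. The series holds 10 libraries in 5 groups. The BZR1-YFP and BEH2-YFP lines are in Col-0 and carry their transgene under the constitutive 35S promoter, meant to be active throughout the plant. In which tissues the fusions were made was not measured. The number of independent lines is not given in the sources used here. Untreated Col-0 is the control of both lines. In a separate hormone experiment Col-0 was given mock or 100 nM brassinolide (BL) for 6 h. The treatment text calls that control mock and the sample titles non-treatment.

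Brassinosteroids are plant steroid hormones that drive cell elongation. The hormone binds a receptor kinase at the cell surface, a kinase that phosphorylates BZR1 and its relatives is switched off, and the dephosphorylated factors act in the nucleus. BZR1 is known to bind the brassinosteroid response element and the G-box, to repress hormone synthesis genes and to activate genes of cell growth. The family consists of BZR1, BES1 and BEH1 to BEH4.

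The authors deposited 1 pooled value per gene and group, so neither the depth of a library nor the spread between the 2 libraries can be shown. The authors' deposited table gives a q-value for each gene; those under 0.05 count as calls, and only called genes are said to rise or fall. The effect is log2 of (BZR1-YFP + 0.5) over (Col-0 + 0.5) in FPKM. The standard error (SE) is that of the deposited log2 ratio, derived from the deposited statistic and p-value. The deposited q-values were not adjusted within this table alone: the smallest is 0.00149, whereas an adjustment of the same p-values over the genes tested in this table gives 0.00856 at the least. That adjustment calls 123 genes higher and 50 lower in place of 237 and 93, so calls that fail it are pointed out for the genes and main groups described. The titles call the libraries of a group biological replicates, and no label says whether they came from separate sowings or plants. The p-values therefore speak only for these libraries. The smallest p-value of the deposited test, 5e-05, was shared by 116 members.

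Of 19507 members tested, 330 (1.69%) were called; 237 (1.21%) rose and 93 (0.477%) fell. Most called changes were small. The median effect was 0.79 among the genes that rose and -0.84 among those that fell, or folds of 1.803 and 1.868. An effect of 1 or more was reached by 69 of the genes that rose and 30 of those that fell, and an effect of 2 or more by 9 and 7. The median effect over the members was 0.00 with quartiles of -0.11 and 0.12. The share called increased with level, from 1.18% at 1 to 5 FPKM to 2.45% at 100 FPKM and above, while the median SE was 0.33 in the lowest class and 0.19 in the highest; the smallest effect called was 0.68 in the lowest and 0.51 in the highest. Just inside the limit of 1 FPKM stood AT3G10590 (0.953 and 1.00 FPKM) and just outside it AT2G40720 (0.811 and 0.9999 FPKM).

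**Figure D1:**
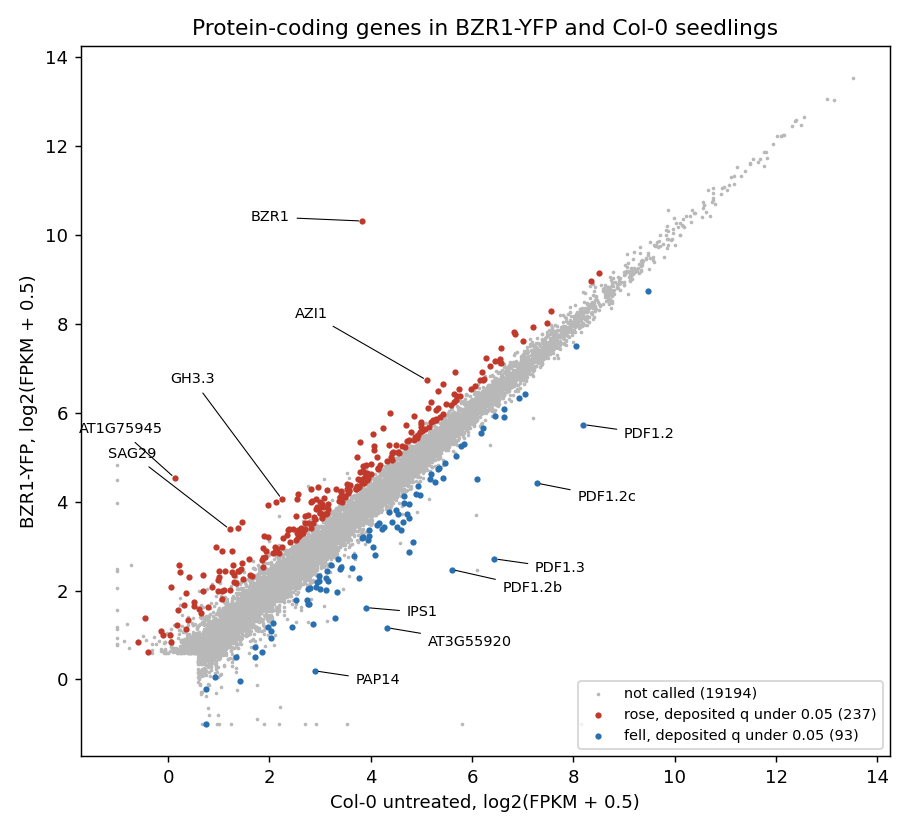
Pooled level of each of the 19524 members in untreated Col-0 (x axis) and BZR1-YFP (y axis), both as log2(FPKM + 0.5); each point is 1 gene, red for the 237 that rose, blue for the 93 that fell and grey for the rest. BZR1 lies farthest above the diagonal, with an effect of 6.47, ahead of AT1G75945 with 4.40, and 4 defensin genes, IPS1, PAP14 and AT3G55920 are the labelled genes below it.

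The BZR1 transcript (AT1G75080, plus strand of chromosome 1, 28185504 to 28188075) was measured at 13.8 FPKM in untreated Col-0 and 1265 FPKM in BZR1-YFP, an effect of 6.47 (SE 0.26) or 91.9-fold. The other groups stood at 15.7 FPKM (BEH2-YFP), 23.0 FPKM (mock) and 27.0 FPKM (BL). The line labelled BZR1-YFP is therefore the group in which this transcript is high. Transcripts of the transgene and of the native gene cannot be told apart in these values. A long non-coding RNA is annotated inside the gene on the opposite strand, AT1G09523 (minus strand of chromosome 1, 28186684 to 28186903). It went from 25.5 to 2388 FPKM, or 93.5-fold. Reads of overlapping genes may be counted for either, and whether reads were assigned by strand was not tested.

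The rest of the family was not called. BES1, the closest relative of BZR1, stood at 112 FPKM in Col-0 and 140 FPKM in BZR1-YFP (effect 0.31, SE 0.21; q = 0.603 in the authors' deposited table). BEH2 was at 25.8 FPKM in Col-0 and 25.7 FPKM in BZR1-YFP, and BEH1 at 19.15 and 19.99 FPKM. The levels of BEH3 were 7.86 and 8.59 FPKM and those of BEH4 14.1 and 12.0 FPKM, so that the 4 effects lay between -0.23 and 0.12.

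Hormone synthesis genes, known targets of repression by BZR1, were not called either. Of 10 tested, Cuffdiff called 0, with 3 lower and 0 higher at an unadjusted p under 0.05. Over the members, 1092 of 19507 tested were under that limit, in either direction. The median effect of the synthesis genes was -0.16 against 0.00 over the members. CPD stood at 90.0 FPKM in Col-0 and 96.1 FPKM in BZR1-YFP (SE 0.19). DWF4, the rate-limiting hydroxylase of the pathway, stood at 6.91 and 4.82 FPKM (effect -0.48, SE 0.22; q = 0.160 in the authors' deposited table). ROT3, a hydroxylase of the same pathway, stood at 11.2 and 8.37 FPKM (effect -0.40, SE 0.19; q = 0.260 in the authors' deposited table). BR6OX2, the oxidase of the last step, stood at 11.5 and 11.7 FPKM. BL in the other experiment took the same genes from 126 to 25.2 FPKM (CPD), from 13.51 to 1.18 FPKM (DWF4) and from 10.2 to 0.215 FPKM (BR6OX2). Of 7 genes of hormone inactivation and 13 of hormone signalling Cuffdiff called 0, with 1 of each lower and 0 higher at an unadjusted p under 0.05. Over the members 1.69% were called. At that share the synthesis, inactivation and signalling lists would hold few calls, so 0 there is near the background.

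Among growth genes, small auxin-induced proteins (SAUR), which promote cell expansion, held rises and no falls. Those with a SAUR symbol numbered 15, of which 5 rose and 0 fell, 2 of the 5 also by the adjustment within the table. Their median effect was 0.81, and 14 were higher in BZR1-YFP. SAUR15 went from 5.26 to 12.2 FPKM (effect 1.15, SE 0.28), and SAUR24 from 9.50 to 19.0 FPKM (effect 0.96, SE 0.26). SAUR63 went from 7.94 to 16.4 FPKM and SAUR20 from 14.0 to 27.1 FPKM, both short of the call within the table. Counted by the name column instead, 10 of 59 SAUR-like genes rose and 0 fell, 4 of them by both adjustments, with a median effect of 0.37. SAUR20 and SAUR24 belong to a run of near-identical genes on chromosome 5, between which reads may be shared.

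The 4 SAUR genes named were also higher in BEH2-YFP than in untreated Col-0, and with BL than with mock. SAUR15 reached 16.0 FPKM in BEH2-YFP, and in the hormone experiment 0.273 FPKM with mock and 4.70 FPKM with BL. The log2 ratio of BEH2-YFP for SAUR15 minus that of BZR1-YFP was 0.39 (SE 0.39), which did not pass the test of the difference. That test is a normal approximation from the deposited statistics, adjusted over all genes at 0.05; with 2 libraries a group and Col-0 libraries that both lines share, it is a rough guide. Untreated Col-0 already stood above the BL value of the other experiment for SAUR15, so the 2 experiments did not start from the same level.

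Few genes rose in each of the other auxin and brassinosteroid response lists, which are short, beside 1.69% of the members called. GH3.3, which conjugates auxin to amino acids, went from 4.24 to 16.1 FPKM (effect 1.81, SE 0.21), and WES1, of the same enzyme family, from 12.5 to 18.9 FPKM; 2 of 7 GH3 genes rose and 0 fell, GH3.3 alone by both adjustments. IAA19, an auxin-induced repressor, went from 11.5 to 18.7 FPKM as the 1 called of 21 tested Aux/IAA genes, and was not called within the table. At an unadjusted p under 0.05, a limit met by 1092 of the 19507 members, 7 Aux/IAA genes were higher and 0 lower. The median effect of that list was 0.18. BEE3, a basic helix-loop-helix factor of the early brassinosteroid response, went from 11.5 to 20.2 FPKM (effect 0.78, SE 0.21). It was 1 of 18 growth regulators of that class called.

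Cell wall genes moved in both directions. Xyloglucan endotransglucosylases, which cut and rejoin wall glucans, rose in 4 of 27 cases and fell in 0, and the 4 passed both adjustments. XTH7 went from 114 to 222 FPKM (effect 0.97, SE 0.18), XTH24 from 188 to 309 FPKM, XTH15 from 17 to 31.6 FPKM and XTH25 from 1.33 to 3.71 FPKM. Expansins, which loosen the wall, had 2 of 21 fall and 0 rise: EXPA8 from 131 to 85.2 FPKM and EXPB1 from 13.8 to 8.72 FPKM. Neither expansin passed within the table.

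Extensins and proline-rich wall proteins fell in 7 of 150 cases and rose in 1, with 4 falls and 0 rises within the table; 5.33% of the list was called against 1.69% of the members. EXT10 went from 7.07 to 3.73 FPKM (effect -0.84, SE 0.24). Its neighbour AT5G06630 went from 7.42 to 4.16 FPKM, and EXT6 on chromosome 2 from 8.34 to 4.89 FPKM, neither passing within the table. HRGP1 went from 22.2 to 13.6 FPKM and the adjacent AT3G54580 from 35.7 to 22.2 FPKM. EXT10 stood at 2.605 FPKM in BEH2-YFP, and at 13.4 FPKM with mock against 2.096 FPKM with BL. These genes are close copies of each other, and reads may be shared between them.

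The promoters of EXT10 and EXT6 are shown because both hold the first form of the brassinosteroid response element, CGTGTG, the sequence BZR1 is known to bind. They are the 250 bases before each gene start, 5′ to 3′, from the RefSeq copy of the assembly TAIR10.1, at chr5:2041929-2042178, minus strand (EXT10), and chr2:10622146-10622395, plus strand (EXT6). Capitals mark the element, here in its reverse complement.
EXT10: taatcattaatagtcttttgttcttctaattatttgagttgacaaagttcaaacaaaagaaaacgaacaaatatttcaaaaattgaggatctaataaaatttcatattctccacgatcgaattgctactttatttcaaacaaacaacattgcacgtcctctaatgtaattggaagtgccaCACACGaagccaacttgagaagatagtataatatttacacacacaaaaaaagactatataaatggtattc
EXT6: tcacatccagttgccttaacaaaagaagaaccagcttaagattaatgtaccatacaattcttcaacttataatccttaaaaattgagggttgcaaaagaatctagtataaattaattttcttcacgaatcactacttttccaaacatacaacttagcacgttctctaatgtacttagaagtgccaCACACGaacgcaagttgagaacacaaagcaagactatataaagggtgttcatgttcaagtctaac
The element starts 70 bases before the start of EXT10 and 65 before that of EXT6, within a run of 17 bases that both share, gaagtgccaCACACGaa.

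Over the members, CGTGTG on either strand occurred within 250 bases before to 50 after the start in 6.79% of 19474 promoters, in 8.02% of those that rose and in 15.2% (14 of 92) of those that fell. The second form, CGTGCG, occurred in 2.12%, 1.69% and 2.17%. The G-box CACGTG, which can overlap CGTGTG, occurred in 8.74%, 9.28% and 12.0%. With 500 bases before the start CGTGTG occurred in 10.6% of the promoters, 11.4% of those that rose and 17.4% of those that fell. A match is a run of letters and not evidence of binding, and none of these shares was tested. HRGP1, AT3G54580 and AT5G22430, of the extensin list, fell as well and hold 0 matches of CGTGTG within 250 bases before to 50 after the start. EXT10 and EXT6 are among the 14 genes that fell with CGTGTG. AIR3, a subtilisin-like protease gene that went from 24.5 to 11.1 FPKM (effect -1.11, SE 0.18), is the third of these genes shown and holds 1 match 27 bases before its start (chr2:1407828-1408077, minus strand).
AIR3: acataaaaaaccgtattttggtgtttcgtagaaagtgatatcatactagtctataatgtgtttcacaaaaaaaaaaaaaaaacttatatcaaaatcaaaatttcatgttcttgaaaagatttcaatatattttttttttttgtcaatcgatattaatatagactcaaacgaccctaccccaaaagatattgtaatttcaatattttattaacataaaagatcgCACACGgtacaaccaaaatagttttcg

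**Figure D2:**
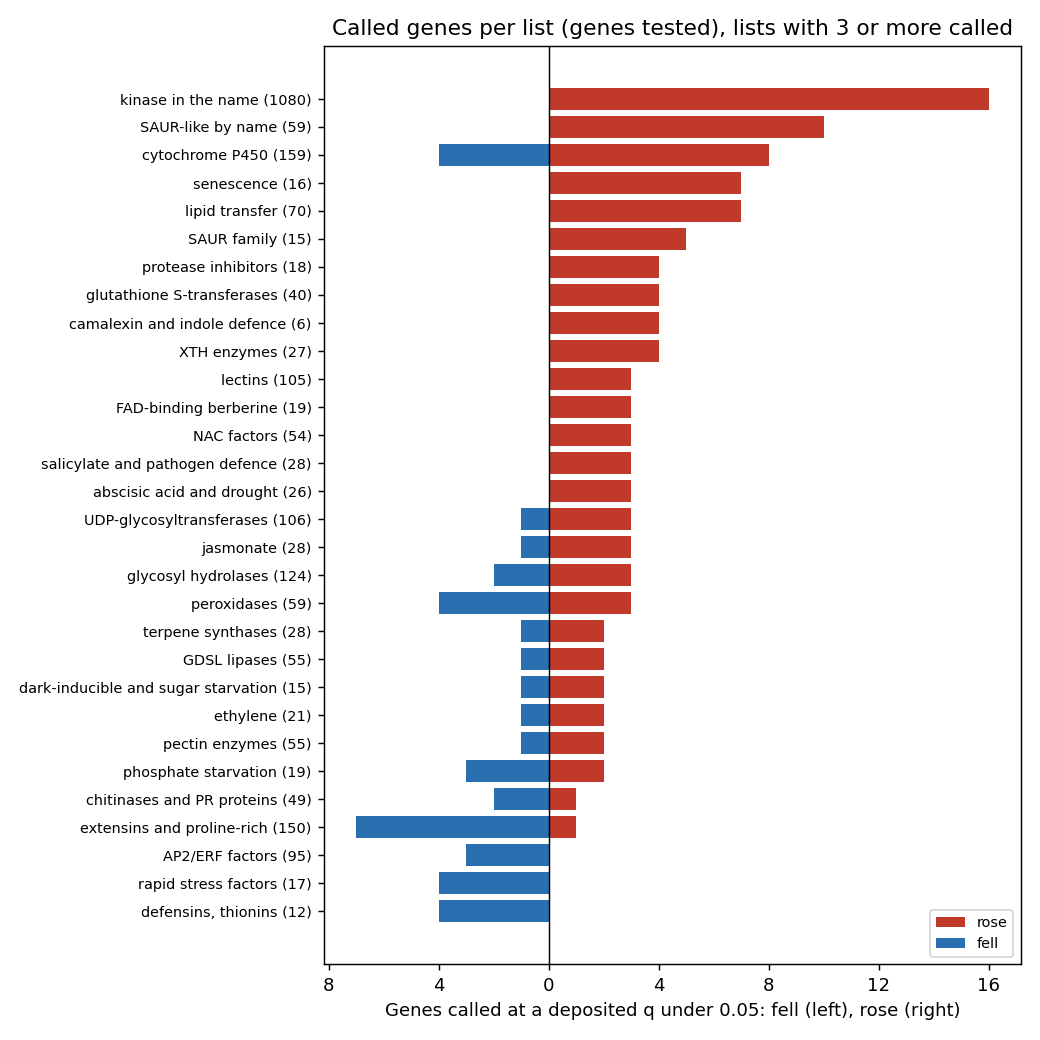
Number of genes called at a q-value under 0.05 that rose (red, to the right) or fell (blue, to the left) in each list with 3 or more called genes; the number of genes tested is in brackets. Senescence, SAUR, lipid transfer and camalexin lists hold rises and no falls, while the defensin and rapid stress lists hold falls and no rises.

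Plant defensins, small antifungal peptides induced by jasmonate and ethylene, were among the deepest falls. Of 12 defensins, thionins and related genes 4 fell and 0 rose, and the 4 passed both adjustments. PDF1.3 went from 86.5 to 6.05 FPKM (effect -3.73, SE 0.28). PDF1.2b went from 48.0 to 5.05 FPKM (effect -3.13, SE 0.30). PDF1.2c went from 155 to 20.8 FPKM (effect -2.87, SE 0.22). PDF1.2, the usual marker of the jasmonate and ethylene response, went from 293 to 52.6 FPKM (effect -2.47, SE 0.20). They lie as 2 adjacent pairs, PDF1.3 with PDF1.2b on chromosome 2 and PDF1.2 with PDF1.2c on chromosome 5. They are near-identical in sequence, so how reads were divided among them is uncertain. The thionin gene THI2.1 stood at 35.0 and 16.2 FPKM and did not pass, with q = 0.433 in the authors' deposited table.

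Untreated Col-0 was the group with the highest level of each of these 4 defensins. PDF1.2 stood at 1.72 FPKM in BEH2-YFP, 3.74 FPKM with mock and 17.3 FPKM with BL. PDF1.2c stood at 0.177 FPKM in BEH2-YFP and 0.896 FPKM with mock. The log2 ratio of BEH2-YFP for PDF1.2 minus that of BZR1-YFP was -4.94 (SE 0.43) and passed the test of the difference. ORA59, an ERF factor that activates PDF1.2, went from 6.15 to 2.98 FPKM (effect -0.94, SE 0.29), a call that ended within the table.

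The promoters of PDF1.2 (chr5:17907639-17907888, minus strand) and PDF1.2b (chr2:11088873-11089122, plus strand) are shown because each holds a GCC box core, GCCGCC, the sequence ERF factors such as ORA59 are known to bind. They are the 250 bases before each start in TAIR10.1 from RefSeq, 5′ to 3′, and capitals mark the core.
PDF1.2: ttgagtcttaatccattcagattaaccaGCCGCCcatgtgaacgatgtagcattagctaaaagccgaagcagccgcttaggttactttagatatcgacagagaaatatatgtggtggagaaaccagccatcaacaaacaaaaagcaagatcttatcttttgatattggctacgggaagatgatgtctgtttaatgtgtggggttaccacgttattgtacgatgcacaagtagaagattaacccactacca
PDF1.2b: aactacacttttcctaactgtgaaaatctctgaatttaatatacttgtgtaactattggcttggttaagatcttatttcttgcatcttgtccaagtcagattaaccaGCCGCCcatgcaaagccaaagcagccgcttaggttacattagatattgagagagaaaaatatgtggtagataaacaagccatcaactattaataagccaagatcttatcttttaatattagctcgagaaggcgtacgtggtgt
The core begins 222 bases before the start of PDF1.2 and 143 before that of PDF1.2b, in a shared run of 22 bases, tcagattaaccaGCCGCCcatg. Within 250 bases before to 50 after the start, GCCGCC on either strand occurred in 2.61% of the members, 0.844% of the genes that rose and 8.70% (8 of 92) of those that fell, PDF1.2 and PDF1.2b included. PDF1.3 and PDF1.2c, which fell as well, hold 0 matches in that window. This motif was searched after the falls had been seen.

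Some rapid stress factors fell. Of 17 tested 4 fell and 0 rose, 3 of them by both adjustments. STZ, a zinc finger repressor of the salt and cold response, went from 26.4 to 14.9 FPKM (effect -0.81, SE 0.19). ERF104 went from 31.0 to 17.1 FPKM (effect -0.84, SE 0.19), ERF6 from 15.2 to 8.92 FPKM and ERF5 from 15.1 to 9.72 FPKM, the last not within the table. Genes with AP2/ERF words in the name column, a list that lacks ERF5 and ERF6, had 3 falls and 0 rises among 95, 1 of them by both adjustments, with a median effect of 0.02.

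Some other defence genes rose. In the camalexin and indole defence list, which covers the main antimicrobial indole compound of Arabidopsis, 4 of 6 rose and 0 fell, with a median effect of 1.15. CYP71A13, which makes an early intermediate of camalexin, went from 1.42 to 7.36 FPKM (effect 2.03, SE 0.39). PAD3, the last enzyme of that route, went from 6.60 to 19.0 FPKM (effect 1.46, SE 0.21). GSTF6, a glutathione transferase that acts in it, went from 95.2 to 173 FPKM, and CYP82C2 from 0.167 to 1.303 FPKM. The list's 4 calls passed both adjustments. CYP71A12 (11.7 and 16.6 FPKM) and the regulator MYB51 (10.8 and 8.57 FPKM) were not called. For PAD3 the BEH2-YFP level was 7.63 FPKM, and the difference between the lines, -1.32 (SE 0.30), passed its test.

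The salicylate defence list had 3 rises and 0 falls among 28 genes, and the 3 passed within the table. AZI1, a lipid transfer-like protein needed for systemic priming, went from 33.9 to 106 FPKM (effect 1.63, SE 0.19), and its neighbour EARLI1 from 50.5 to 121 FPKM (effect 1.25, SE 0.19). GRX480, a glutaredoxin that links salicylate to jasmonate signalling, went from 3.41 to 8.77 FPKM. EARLI1, but not AZI1, also belongs to the list of 70 genes with lipid transfer words in the name column, of which 7 rose and 0 fell, 6 by both adjustments; LTP4 went from 3.89 to 15.4 FPKM (effect 1.85, SE 0.30). In the hormone experiment, the mock level was 995 FPKM for AZI1 and 517.8 FPKM for EARLI1, above both untreated Col-0 and BZR1-YFP, whereas it was 0.195 FPKM for LTP4, below both.

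Jasmonate genes rose in 3 of 28 cases and fell in 1, with 2 rises and 0 falls within the table. TAT3, a jasmonate-induced aminotransferase, went from 20.4 to 63.1 FPKM (effect 1.61, SE 0.21), and AOC1, a synthesis enzyme, from 34.6 to 67.9 FPKM. JMT, which methylates jasmonate, went from 1.41 to 0.541 FPKM. In the ethylene list 2 of 21 rose and 1 fell: the synthesis genes ACS7 (0.630 to 1.82 FPKM) and EFE (146 to 241 FPKM) rose, and ORA59 is the fall given above. Protease inhibitors rose in 4 of 18 cases, among them TI1 from 35.8 to 74.5 FPKM, and genes named glutathione S-transferase rose in 4 of 40 cases, 1 of them by both adjustments. Of 1080 genes with kinase in the name 16 rose and 0 fell, 10 of them by both adjustments, a called share of 1.48% that is close to the 1.69% of the members. Of 120 nucleotide-binding resistance receptors Cuffdiff called 0, with 5 higher and 3 lower at an unadjusted p under 0.05. That limit was met by 1092 of the 19507 members tested.

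Among senescence genes, rises were frequent. Of 16 tested 7 rose and 0 fell, 6 by both adjustments, with a median effect of 0.54, and the 16 were all higher in BZR1-YFP. SAG29, a sugar transporter of ageing leaves, went from 1.82 to 9.90 FPKM (effect 2.16, SE 0.30). SAG13, a dehydrogenase-like marker, went from 16.3 to 35.5 FPKM (effect 1.1, SE 0.22). The regulators NAC6 and NAP, which promote leaf senescence, went from 6.31 to 12.4 FPKM and from 21.0 to 33.8 FPKM. SAG20 (80.9 to 132 FPKM), SAG21 (127 to 196 FPKM) and XTH24 made up the 7; SAG21 was the one not called within the table. The chlorophyll breakdown genes of the list stayed short of a call, NYE1 at 14.0 and 17.8 FPKM and ACD1 at 37.5 and 44.9 FPKM. SAG29 reached 15.1 FPKM in BEH2-YFP, and the difference between the lines did not pass its test (0.61, SE 0.41).

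Among abscisic acid and drought genes 3 of 26 rose and 0 fell, 1 of them by both adjustments: RD20, a lipid-body protein gene, from 25.6 to 52.5 FPKM (effect 1.02, SE 0.19). Of 54 genes with NAC domain or NAC-like in the name 3 rose, by both adjustments, and 0 fell, and of 56 WRKY factors 2 rose and 0 fell, WRKY18 from 7.51 to 15.4 FPKM and WRKY48 from 2.04 to 4.01 FPKM, the latter not within the table.

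Genes of phosphate starvation split. Of 19 tested 3 fell, by both adjustments, and 2 rose, with a median effect of -0.01. IPS1, which titrates a microRNA of phosphate homeostasis and is listed in the table as protein-coding, went from 14.5 to 2.56 FPKM (effect -2.29, SE 0.38). PS2, a phosphatase induced by phosphate shortage, went from 26.7 to 12.0 FPKM (effect -1.12, SE 0.21). MGDC, which makes galactolipids when phosphate is short, went from 7.502 to 3.59 FPKM (effect -0.97, SE 0.27). The list's rises were those of the sugar phosphate translocator GPT2, from 4.63 to 9.82 FPKM, and of G3Pp1, from 42.3 to 61.9 FPKM; the latter was not called within the table. The starvation sensors and regulators SPX1 (56.8 and 67.6 FPKM), SPX3 (7.19 and 4.66 FPKM) and PHR1 (34.5 and 32.6 FPKM) were not called.

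Outside the list PAP14, a purple acid phosphatase, went from 6.96 to 0.643 FPKM (effect -2.71, SE 0.37). PEPC1, a phosphatase that was picked after its values were seen, went from 18.7 to 10.2 FPKM. The falls of IPS1 and PS2 were not matched in BEH2-YFP, where they stood at 13.9 and 26.8 FPKM. The difference between the lines was 2.44 (SE 0.47) for IPS1 and 1.16 (SE 0.28) for PS2, and both passed the test. PEPC1 was not called in BEH2-YFP either, at 19.9 FPKM, and its difference passed too. PAP14 and MGDC, however, were called lower in BEH2-YFP as well, by the q-value in the authors' deposited table. PAP14 stood at 1.48 FPKM in BEH2-YFP (effect -1.92, q = 0.00149) and MGDC at 4.07 FPKM (effect -0.81, q = 0.0205). For neither PAP14 nor MGDC did the difference between the lines pass its test. Mock-treated Col-0 stood at 0.991 FPKM for IPS1 and 3.60 FPKM for PS2, below BZR1-YFP.

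The promoter of PAP14 (chr2:19266457-19266706, minus strand, TAIR10.1 from RefSeq, 250 bases before the start, 5′ to 3′) is shown with the motif of PHR1, GNATATNC, in capitals, since PHR1 is the main activator of phosphate starvation genes.
PAP14: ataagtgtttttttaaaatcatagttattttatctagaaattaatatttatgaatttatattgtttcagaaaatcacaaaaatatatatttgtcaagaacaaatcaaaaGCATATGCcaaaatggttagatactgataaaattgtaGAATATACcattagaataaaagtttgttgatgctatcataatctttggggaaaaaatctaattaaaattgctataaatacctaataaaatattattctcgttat
It holds 2 matches, 141 and 104 bases before the start. In the window of 250 before to 50 after the start, the motif on either strand occurred in 6.29% of the members, 11.8% of the genes that rose and 6.52% of those that fell. PS2 holds 1 match there, and IPS1 and MGDC hold 0. This motif too was searched after the falls had been seen, and the shares were not tested.

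**Figure D3:**
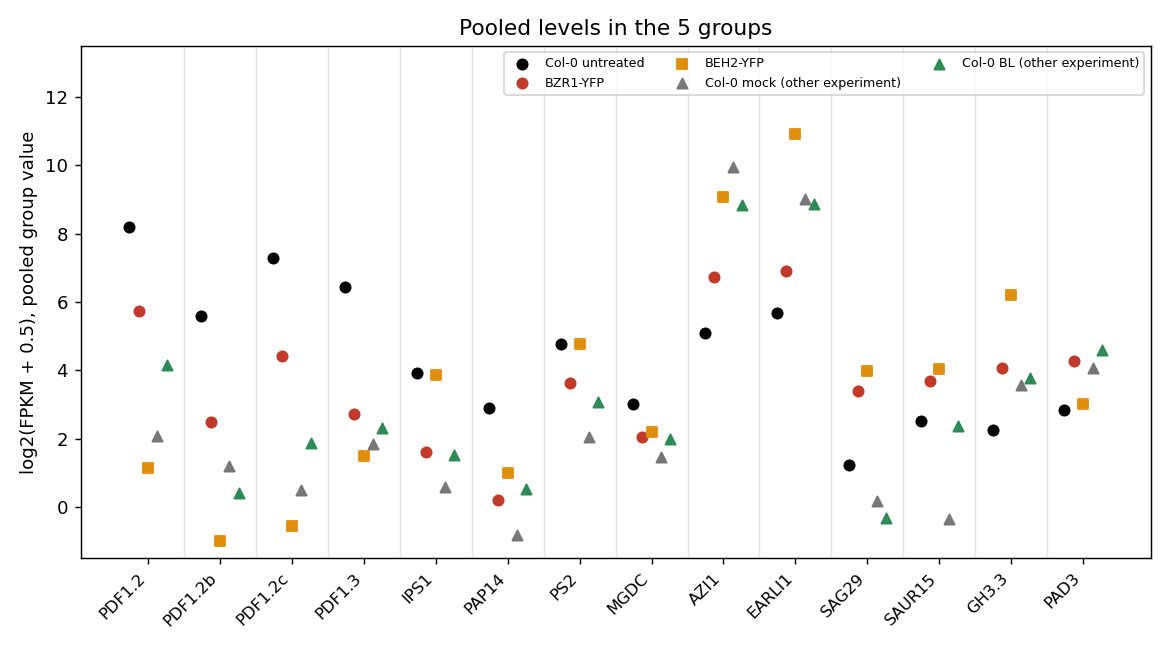
Pooled level of 14 genes, as log2(FPKM + 0.5), in untreated Col-0, BZR1-YFP, BEH2-YFP and the mock and BL groups of the other experiment; each point is 1 group value without replicate spread. The 4 defensins are highest in untreated Col-0, IPS1 and PS2 are lower in BZR1-YFP than in BEH2-YFP, and AZI1 and EARLI1 are higher in mock than in BZR1-YFP.

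Specialised metabolism genes were called in both directions. Cytochrome P450 genes rose in 8 of 159 cases and fell in 4, with 7 and 1 within the table. CYP702A5 went from 9.36 to 2.12 FPKM (effect -1.91, SE 0.26), and in BEH2-YFP stood at 10.1 FPKM (difference 2.25, SE 0.33, which passed its test). Of the neighbouring genes for the root triterpene thalianol 4 fell, as THAS1, the first enzyme, went from 39.95 to 26.6 FPKM, CYP708A2 from 43.7 to 28.5 FPKM, CYP705A5 from 54.6 to 37.7 FPKM and AT5G47980 from 3.41 to 1.78 FPKM. None of those 4 passed within the table. Of 59 peroxidases 3 rose and 4 fell, 2 falls and 2 rises passing both adjustments; AT1G44970 went from 13.04 to 4.37 FPKM and AT4G16270 from 6.77 to 1.87 FPKM.

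Some called genes lay side by side. Of adjacent protein-coding genes, 20 pairs had both members called, 9 pairs with both higher, 10 with both lower and 1 opposite, 38 genes in all. The share over all adjacent pairs was not worked out, so whether side-by-side calls were frequent cannot be said. Many are copies of each other, such as AZI1 with EARLI1 or GSTF7 with GSTF6, where shared reads are possible. CYP71A13 overlaps AT2G30766 in its coordinates, so that reads may be counted for either. MRU1 (26.5 to 6.83 FPKM, effect -1.88, SE 0.27) lies beside AT5G35480, a hypothetical protein gene that went from 28.1 to 8.04 FPKM.

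A fall as deep as those of the defensins, noticed after the values were seen, was that of 1 of 3 adjacent genes of chromosome 3. The cyclophilin gene AT3G55920 (20743443 to 20745153) went from 19.5 to 1.74 FPKM (effect -3.16, SE 0.28). It stood at 19.1 FPKM in BEH2-YFP, 18.3 FPKM with mock and 19.7 FPKM with BL. Next to it AT3G55910 (20742676 to 20743479) stood at 3.22 FPKM in Col-0 and AT3G55900 (20742166 to 20742653) at 1.45 FPKM. Both are listed at 0 in BZR1-YFP and above 0 in the other groups, and neither was called. The coordinates of AT3G55910 overlap those of AT3G55920. The largest rise after BZR1 was that of AT1G75945, annotated as a hypothetical protein, from 0.594 to 22.6 FPKM (effect 4.40, SE 0.66), which was not called within the table.

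Single genes of other pathways were called as well. DML1, a DNA glycosylase that removes cytosine methylation, went from 15.9 to 7.44 FPKM (effect -1.05, SE 0.18). The flowering activator FT went from 3.304 to 6.86 FPKM and the floral identity gene AP1 from 3.61 to 1.63 FPKM, neither by the adjustment within the table. PRR5, of the circadian clock, went from 8.85 to 5.42 FPKM, also not within the table. Among iron genes NAS3, which makes a metal chelator, went from 16.2 to 37.2 FPKM, and the iron store gene FER1 from 266 to 179 FPKM, a call that ended within the table.

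Large housekeeping groups had no calls, beside 1.69% called over the members. At that share the photosystem, histone, cyclin and root hair lists would hold few calls, so 0 there is near the background. An unadjusted p under 0.05 was listed for 1092 of the 19507 members tested, in either direction. Of 326 ribosomal protein genes Cuffdiff called 0, with 1 higher and 7 lower at an unadjusted p under 0.05; the median effect was -0.08. Of 43 light-harvesting and photosystem genes it called 0, with 0 at an unadjusted p under 0.05. Of 96 histone genes it called 0, with 2 higher and 1 lower unadjusted, and of 85 genes with cyclin in the name 0, with 1 higher and 0 lower unadjusted. Root hair genes also had 0 of 21 called by Cuffdiff, but 18 were lower in BZR1-YFP, 5 at an unadjusted p under 0.05, with a median effect of -0.32.

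Markers of leaf and root were present and those of seed nearly absent in both groups. The 4 leaf mesophyll markers summed to 18286 FPKM in Col-0 and 18615 FPKM in BZR1-YFP, the 4 root markers to 108 and 101.01 FPKM, the 3 meristem markers to 11.4 and 10.6 FPKM and the 3 guard cell markers to 22.4 and 25.6 FPKM. Within the root list PRP3 stood at 21.2 and 15.2 FPKM and COBL9 at 3.49 and 2.71 FPKM, both lower in BZR1-YFP and not called, while PHT1;1 (49.9 and 50.5 FPKM) and CASP1 (33.4 and 32.6 FPKM) stood closer. The 5 flower markers summed to 27.0 and 24.7 FPKM, of which SEP3 alone made up 15.2 and 18.0 FPKM. The other 4 were lower in BZR1-YFP: AP1, at the levels given above, was called, and AP3 (3.19 and 1.52 FPKM), PI (3.62 and 2.74 FPKM) and AG (1.43 and 0.784 FPKM) were not. The part of these cell types in the results was not tested. The 4 seed storage markers summed to 0.0392 and 0.0927 FPKM, with CRU3, OLEO1 and SESA3 listed at 0 in both groups. In whole seedlings, fewer cells of a type and less RNA per cell cannot be told apart. The 43 plastid-encoded members had a median effect of -0.53, with 31 lower in BZR1-YFP and 0 called by Cuffdiff.

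BZR1-YFP was next set beside the hormone. With BL against mock, 1173 of 19396 members tested (6.05%) were called in the authors' deposited table. Of the 319 BZR1-YFP calls tested there, 100 (31.3%) were called with BL, 61 in the same direction and 39 in the opposite one. These 100 genes are 30.3% of the BZR1-YFP calls and 8.53% of the BL calls. Of the genes that rose in BZR1-YFP 41 rose and 32 fell with BL, and of those that fell 7 rose and 20 fell. SAUR15, XTH7, BEE3 and IAA19 rose in both, and the extensins EXT10, EXT6 and HRGP1 fell in both. AZI1 rose in BZR1-YFP and fell with BL, from 995 to 462 FPKM, and XTH24 likewise, from 978.5 to 549.5 FPKM. PDF1.2 fell in BZR1-YFP and rose with BL.

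The controls of both experiments were far apart for many of these genes. Mock and untreated Col-0 differed at least 2-fold in 12.4% of the members, in 57.4% of the genes that rose in BZR1-YFP and in 59.1% of those that fell. For 110 of the 237 genes that rose and 47 of the 93 that fell, mock-treated Col-0 stood at or beyond the BZR1-YFP level. The untreated Col-0 libraries enter both of these ratios, so an untreated value that is low or high for other reasons and an effect of the transgene cannot be told apart there. Leaf mesophyll markers differed between untreated and mock-treated Col-0 too. LHCB1.1 stood at 4503 and 9.33 FPKM, and LHCB2.1 at 2302 and 28.4 FPKM. With BL these 2 stood at 12.7 and 28.3 FPKM. CA1 stood at 2401 and 711 FPKM in the 2 controls, and RBCS1A at 9080 and 6534 FPKM. The reason was not tested.

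The line overexpressing BEH2, also set against the untreated Col-0 libraries, shows where the BZR1-YFP values differ. The difference between the lines passed its test in 763 of 19484 members (3.92%). These differences are of the deposited log2 ratios, without the added 0.5 FPKM, so values near the floor enlarge them. PCR1, named for plant cadmium resistance, went from 12.7 to 31.8 FPKM in BZR1-YFP (effect 1.29, SE 0.23). In BEH2-YFP PCR1 stood at 0.205 FPKM, an effect of -4.23 with 0.5 added (difference -7.28, SE 0.73). EARLI1 stood at 121 FPKM in BZR1-YFP and 1945 FPKM in BEH2-YFP, and GH3.3 at 16.1 and 73.6 FPKM; these differences all passed. For FT, at 6.86 FPKM in BZR1-YFP and 1.59 FPKM in BEH2-YFP, the difference of -2.11 (SE 0.50) passed too. For CYP71A13 (7.36 and 3.73 FPKM) the difference of -0.98 (SE 0.55) did not pass.

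**Figure D4:**
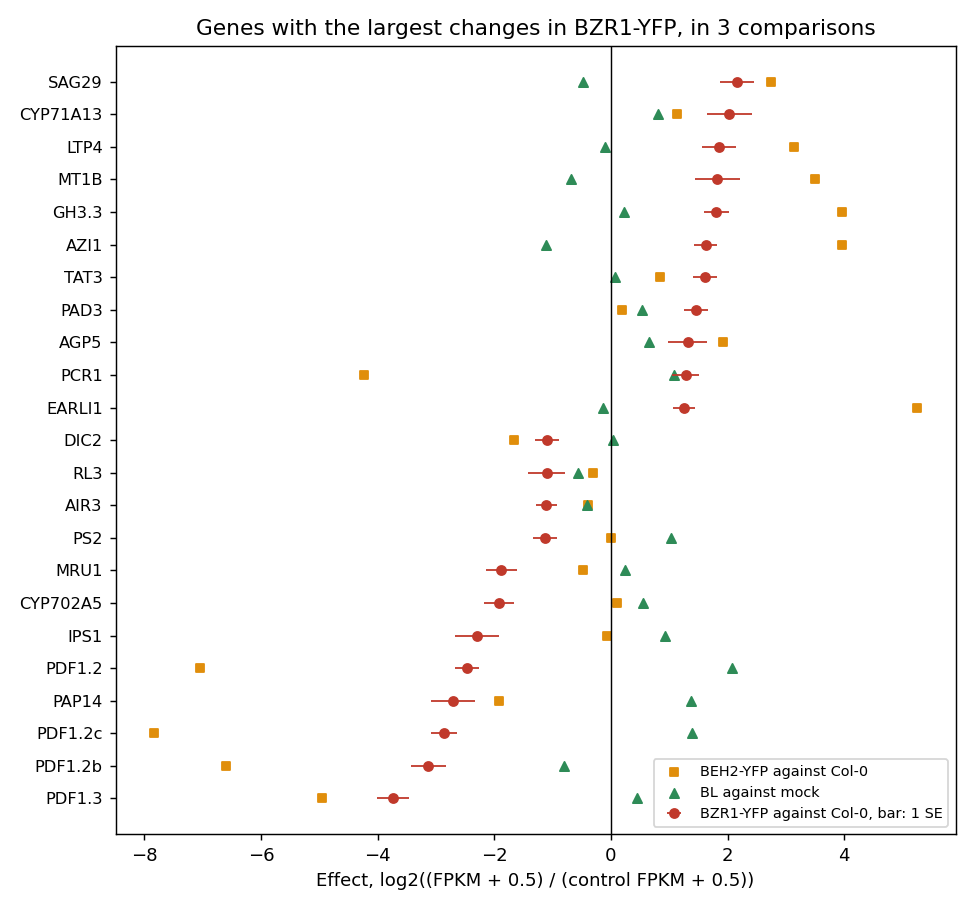
Effect, as log2 of the ratio with 0.5 added to each FPKM value, of the 11 largest rises other than BZR1 and the 12 largest falls among called genes that have a symbol and reach 5 FPKM (red circles; bar, 1 SE of the log2 ratio), with the effect of BEH2-YFP (orange squares) and of BL (green triangles). PCR1 is higher in BZR1-YFP and lower in BEH2-YFP, while IPS1, PS2 and CYP702A5 are lower in BZR1-YFP and near 0 in BEH2-YFP.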

How the data were processed

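Messenger RNA of 10 libraries, 2 in each of 5 groups given by the sample titles, was sequenced with a stranded kit, per the labels. Per the submitters' processing notes, TopHat2 2.0.13, TAIR10 and Cuffdiff 2.2.0 were used; neither trimming nor the use of strand is given in these sources. The authors deposited 1 FPKM value per gene and group, pooled over both libraries, a log2 fold change, a test statistic (a score of Cuffdiff), a p-value and a q-value. Depth is unknown. The planned model per library could not be run on pooled values, so the deposited test was used.

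The derived SE is the log2 ratio divided by the statistic times 1.43, the median ratio of the normal quantile of p to the statistic. The BEH2-YFP minus BZR1-YFP difference was compared with both SEs in a two-sided normal test. Its p-values were adjusted by Benjamini-Hochberg over all genes tested in both tables. A simulation of this test drew its differences with the same SEs and left out the shared Col-0 libraries. It therefore cannot show how the test behaves on these data. Members and lists were chosen with earlier results of these data known. Of 80 lists, 29 were written by symbol (574 of 594 symbols matched; 8 that another gene also carries were set to the intended locus, and 1 misplaced symbol was removed, after values were seen) and 51 by words of the symbol or name column, so that they miss members named otherwise; 10 further word lists were dropped and the peroxidase words widened and the photosystem symbols narrowed after values were seen. Named genes were the BZR family, up to 12 rises and 12 falls of largest effect (called, with a symbol, 5 FPKM or more), up to 4 called genes per list, and 4 synthesis genes; others are named as list members or chosen after their values were seen. Promoters were read from TAIR10.1, the build of the files' annotation columns; those printed were chosen after values were seen. No deposited column was left unmapped (0). Alternatives were other q limits, adjustments, filters, pseudocounts and a longer promoter window. The work used SciPy 1.17.1, pandas 2.3.3 and numpy 2.4.6 under Python 3.11.15, with matplotlib 3.10.9 for the plots.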

Additional observations from a re-analysis of the deposited data

How the results depend on the processing

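The number of genes that rose and fell depended on the limit and on the adjustment. The main counts were 237 and 93. At a q-value under 0.01 they were 127 and 50, with at least a 2-fold effect as well 69 and 30, with p adjusted inside the BZR1-YFP table they were 123 and 50, and adjusted over the tested members alone 127 and 50. Of the 330 calls 173 held within the table. A q-value under 0.1, no filter on low values, 5 FPKM at the least, and all classes of row kept the counts within 1.5 times of these. Calls shared with BL numbered 100 and, at a q-value under 0.01 in both tables, 48. The number of lists with a called gene was 59 and stayed between 56 and 68. Of 151 named genes, none reversed with a pseudocount of 0.1 or 1 or after subtracting the members' median (0.00); 50 of the 142 called ones lost their call when adjusted within the table.

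No paired analysis was possible because the authors pooled both libraries of a group into 1 value, and no library was left out for the same reason. Depth and detection limits are unknown.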

Other observations

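Outside the protein-coding members, 29 rows of other classes were called in BZR1-YFP, 20 of them higher. Pseudogene rows were among them: SADHU3-2, of a retroelement family, went from 0.556 to 10.7 FPKM and stood at 0.711 FPKM in BEH2-YFP. The pseudogene AT1G43590 went from 1.15 to 21.9 FPKM and stood at 1.69 FPKM in BEH2-YFP, and AT5G27845 went from 0.0801 to 4.82 FPKM. These rows were picked after their values were seen. The non-coding RNA AT2G01422 went the other way, from 30.4 to 0.356 FPKM, and stood at 57.5 FPKM with mock and 7.09 FPKM in BEH2-YFP. The ribosomal RNA row AT3G41768 went from 847 to 405 FPKM, with 278 FPKM in BEH2-YFP. Its call ended within the table. AT2G01422 and AT3G41768 were also picked after their values were seen.

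Among members, 86 had an effect of 1 or more in size without a call, and 15 of these were not tested by Cuffdiff. AT3G45851, annotated as a hypothetical protein, was given 282 FPKM in untreated Col-0 and listed at 0 in the other 4 groups. It is among the genes not tested, and its annotated span is short (chromosome 3, 16861431 to 16861535).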
